A study of Mus musculus with 6 samples.

Results

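Chromatin at 34 genes of autophagy and the lysosome was followed in granulocyte-monocyte progenitors, the bone marrow cells that give rise to neutrophils and monocytes. They came from mice carrying human GFI1 (GFI1-KI) and from mice making a reduced amount of it (GFI1-KD). GFI1 is a zinc-finger transcriptional repressor that favours neutrophil development. Of 182166 consensus peaks from an assay for accessible chromatin (ATAC-seq, in which a transposase inserts adapters into open DNA), 369 belonged to these genes. A peak was assigned to a gene if it overlapped the gene's body, or if it lay within 50 kb with that gene as the nearest protein-coding one. All 34 genes had at least 1 peak, from 1 at Becn1 to 52 at Uvrag, and 350 of the 369 peaks had a mean of at least 10 normalized reads and were tested.

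Both groups were untreated C57BL/6 mice whose murine Gfi1 is replaced by the human gene. GFI1-KI mice (3 libraries, homozygous by their label) carry human GFI1 in its place, and GFI1-KD mice (3 libraries, also homozygous) make only 10 to 20% of the human protein or transcript, the design text not saying which. No library came from mice with their own Gfi1, and the expressed human gene is shared by both groups. Cells were sorted by flow cytometry, and the labels give neither the age of the animals nor whether each library came from a separate animal, so the p-values here reflect library-to-library spread, which may be technical. In what follows "higher" and "lower" refer to GFI1-KD against GFI1-KI, and a peak was called at a Benjamini-Hochberg adjusted p under 0.05 over all 170733 tested peaks.

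Autophagy encloses cytoplasm and worn organelles in a double membrane, the autophagosome, which then fuses with the lysosome for digestion. It begins with the ULK kinase complex, which activates a class III phosphatidylinositol 3-kinase. Lipid carriers and phosphoinositide-binding proteins then extend the membrane, and 2 ubiquitin-like conjugation systems attach proteins of the ATG8 family to its lipid. Cargo receptors bind ATG8 proteins, while the transcription factors TFEB and TFE3 drive lysosomal and autophagy genes through a CACGTG-centred element. In blood formation autophagy is known for clearing mitochondria and for the upkeep of stem and progenitor cells.

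Promoters of 4 of the genes are printed first, because their peaks or motifs recur in the results: Wipi1 and Bnip3 had lower promoter peaks in GFI1-KD, and Lamp1 and Atg3 held the most copies of the TFEB and TFE3 core motif. Each is the 250 bases before the start, 5′ to 3′ on the gene's strand, from RefSeq on GRCm38.p6 (mm10), with matches to CACGTG or TCACGTGA in capitals. The spans are chr11:109611390-109611639 on the minus strand for Wipi1, chr7:138909507-138909756 on the minus strand for Bnip3, chr8:13158911-13159160 on the plus strand for Lamp1 and chr16:45158579-45158828 on the plus strand for Atg3.
Wipi1: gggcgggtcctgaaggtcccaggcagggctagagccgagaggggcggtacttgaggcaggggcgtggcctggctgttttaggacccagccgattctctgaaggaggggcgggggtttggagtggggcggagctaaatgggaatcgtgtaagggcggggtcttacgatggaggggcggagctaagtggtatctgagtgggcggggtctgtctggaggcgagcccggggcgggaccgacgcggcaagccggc
Bnip3: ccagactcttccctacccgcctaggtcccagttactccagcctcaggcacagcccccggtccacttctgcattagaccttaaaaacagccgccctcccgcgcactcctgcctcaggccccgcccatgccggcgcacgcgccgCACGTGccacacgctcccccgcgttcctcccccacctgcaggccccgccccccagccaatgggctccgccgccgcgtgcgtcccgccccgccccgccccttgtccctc
Lamp1: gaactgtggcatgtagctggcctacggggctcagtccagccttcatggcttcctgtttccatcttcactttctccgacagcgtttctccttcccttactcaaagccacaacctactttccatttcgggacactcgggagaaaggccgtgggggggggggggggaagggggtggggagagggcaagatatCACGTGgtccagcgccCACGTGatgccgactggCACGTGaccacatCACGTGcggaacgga
Atg3: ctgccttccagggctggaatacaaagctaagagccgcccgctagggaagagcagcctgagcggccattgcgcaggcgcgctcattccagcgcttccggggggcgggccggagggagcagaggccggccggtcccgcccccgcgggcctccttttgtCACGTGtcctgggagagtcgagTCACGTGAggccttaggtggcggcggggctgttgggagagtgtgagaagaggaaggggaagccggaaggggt

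The motif CACGTG, read on both strands, occurred in 1666 of 21263 promoters of this table, each 300 bases long from 250 before to 50 after the start (7.84%). It occurred in 6 of the 33 listed promoters, which cover 28 of these genes: those of Atg14, Atg3, Atg5, Atg7, Bnip3 and Lamp1. No peak overlapped the listed Atg7 promoter, whose start lies inside the gene. The longer palindrome TCACGTGA, which contains CACGTG, was found in 1.23% of all promoters and here only in Atg3. Lamp1 held 4 copies of CACGTG, at -61, -45, -28 and -15 from the start, and only 5 promoters (0.0235%) held 4 or more. Atg3 held 2 copies, at -94 and -71, and 159 promoters (0.748%) held 2 or more. AATCACNGC, taken from the GFI1 consensus, was in 1.05% of all promoters and in none of these, which says only that these letters are not in these windows. The table has no entry for 6 of the genes (Becn1, Pik3c3, Atg12, Atg16l1, Map1lc3a and Bnip3l).

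The 6 libraries held 16022763 to 27741446 reads in peaks. Peaks at the ends of 9 of 10 genes that mark the sorted progenitors, among them Mpo and Elane, summed to 8192 to 8505 normalized reads across the GFI1-KI libraries and 7841 to 8214 across the GFI1-KD libraries, with no peak at Fcgr3 and with 1 higher and 1 lower of 19 tested peaks. Of the other cell types, erythroid markers (all 5 with peaks) summed to 1225 to 1364 and 989 to 1060, with 3 of 10 tested peaks lower, and megakaryocyte markers (all 5) to 1523 to 1846 and 1132 to 1336, with 4 of 14 lower. B cell (all 5, 625 to 701 and 563 to 701), T and NK cell (3 of 5, 1066 to 1083 and 874 to 1053), mature neutrophil (4 of 5, 487 to 571 and 553 to 700) and mature macrophage markers (all 5, 703 to 784 and 713 to 802) had no called peak. Over all tested peaks 4.99% were called higher and 5.48% lower, and over all promoter peaks 1.42% and 7.46%. The sums did not overlap between genotypes for the erythroid, megakaryocyte and T and NK lists, and their part in the results was not tested. In a bulk library, a site open in fewer cells and a site less open in each cell cannot be told apart.

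Of the 350 tested peaks, 23 were higher and 13 lower in GFI1-KD, 36 in all (10.3%). Over all tested peaks 10.5% were called, 4.99% higher and 5.48% lower, so the share called near these genes was close to the background. The median log2 fold change was -0.02 over these peaks and -0.05 over all peaks, on the log2(value + 1) scale used throughout. The libraries of the genotypes did not overlap in 100 of the 350 peaks, as in 28.8% of all tested peaks. Among the called peaks they overlapped at 1 near Sqstm1 and 1 near Optn. Calls of at least 2-fold were made at 11 of the 350, against 2.84% of all tested peaks.

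The called peaks fell in 18 of the 34 genes. The share of all genes with a called peak was not counted, so this number is not a result about the set. They were higher only at Ulk2, Pik3c3, Atg14, Uvrag, Atg16l1, Sqstm1, Tfe3 and Lamp2, lower only at Wipi1, Map1lc3a, Optn, Bnip3 and Tfeb, and went both ways at Atg7, Atg10, Atg4a, Bnip3l and Lamp1. The other 16 genes had no called peak. By place, 3 called peaks overlapped the 1 kb on either side of a listed start. Another 26 lay elsewhere in a gene body (exons and introns were not told apart) and 7 outside the body within 50 kb. Peaks of the 6 genes without a listed start could not count as promoter peaks. The called gene-end peaks of Map1lc3a and Bnip3l are therefore among the 26. None of the called peaks was also assigned to another gene, as 7 of the 369 were. Of the 49 tested promoter peaks 1 was higher and 2 lower, against 8.88% called over all promoter peaks (1.42% higher and 7.46% lower). Outside promoters 22 of 301 were higher and 11 lower (11.0%), close to the 10.7% called over all peaks outside promoters (5.49% higher and 5.2% lower).

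**Figure D1:**
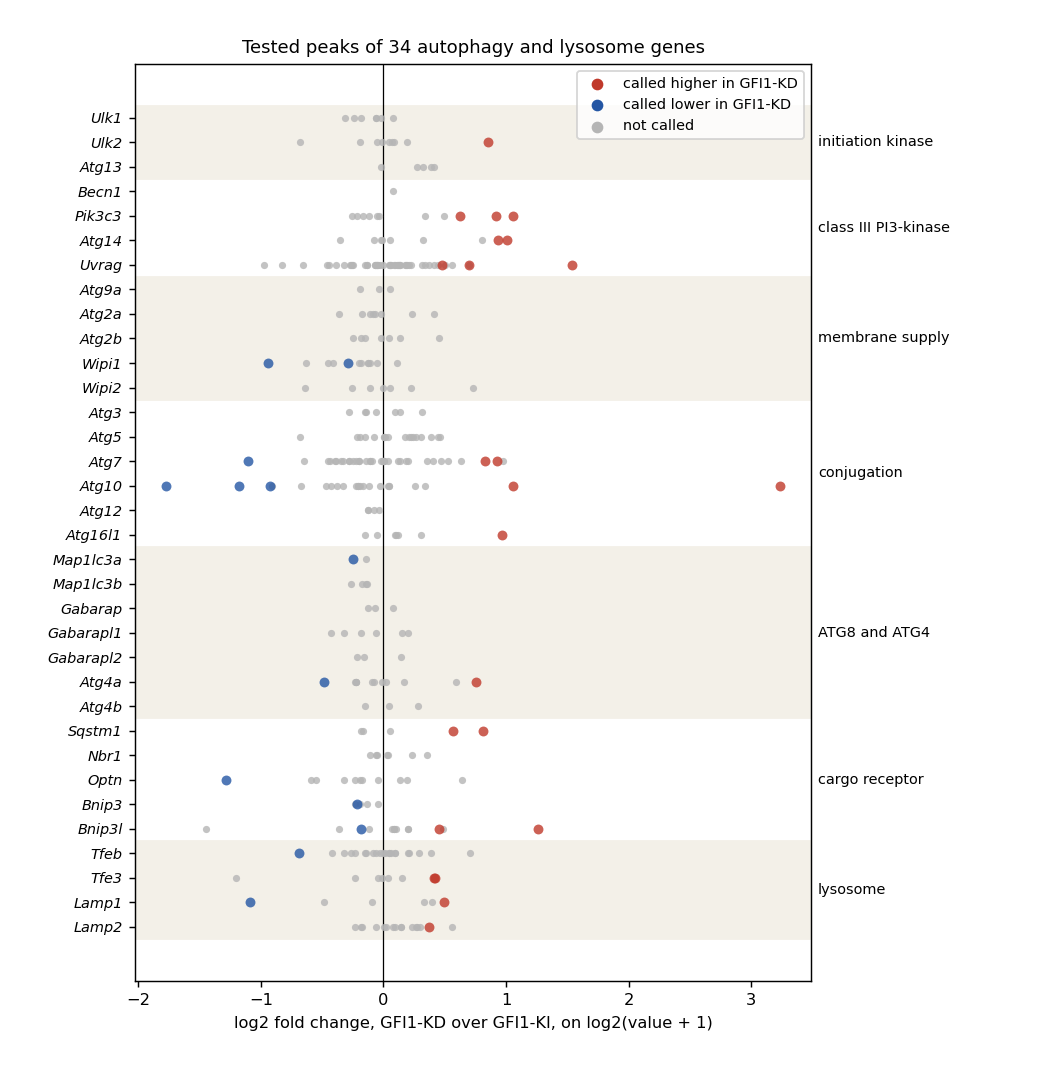
Each dot is 1 tested peak, placed by its log2 fold change (GFI1-KD over GFI1-KI) in the row of its gene, with genes ordered by role; red and blue dots were called higher and lower. The class III PI3-kinase rows hold 8 red dots and no blue one, and the dot farthest right, at 3.24, belongs to Atg10.

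Leaving out 1 library at a time, 12 of the 36 calls held without each library. The others were lost without at least 1, most often without GFI1-KI 3 (23 lost), GFI1-KI 2 (20), GFI1-KD 3 (16) or GFI1-KD 2 (15). On reads recovered from the deposited values, edgeR called 34 of the 36, all but the end peak of Bnip3l and the promoter peak of Bnip3 (adjusted p 0.132 and 0.053). DESeq2 called 23 of the 35 it tested. It left uncalled, at adjusted p from 0.0518 to 0.278, 12 peaks at Atg10, Atg16l1, Atg4a (2), Atg7, Bnip3, Bnip3l, Map1lc3a, Optn, Sqstm1, Tfeb and Wipi1, none of them among those that held without each library. The 12 that held were called by each tool, scaling and filter that tested them, and lay at Ulk2, Pik3c3 (2), Atg14, Uvrag, Wipi1, Atg7, Atg10 (3), Sqstm1 and Bnip3l. All 36 kept their sign in every fit.

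**Figure D2:**
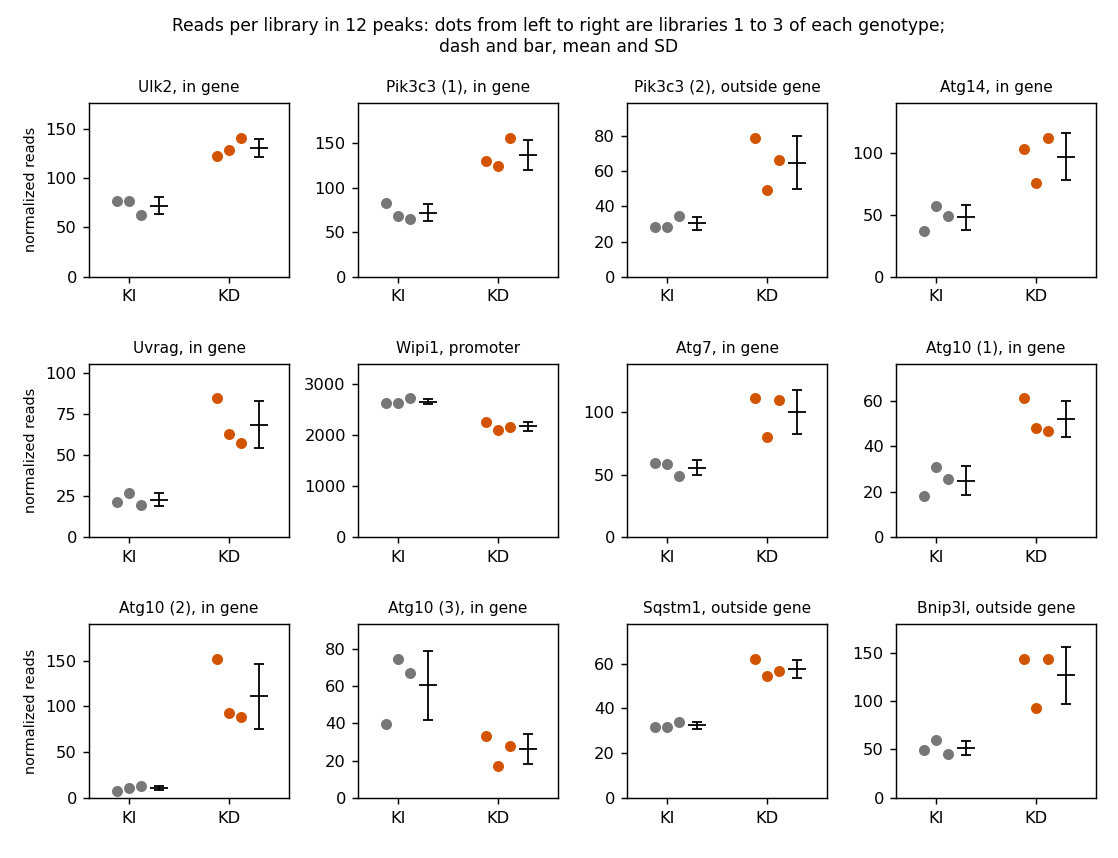
Normalized reads per library (vertical axis, from 0) in the 12 peaks called in every fit that tested them, with GFI1-KI in grey and GFI1-KD in orange and the mean and SD of each genotype beside the dots. In each panel the libraries of the genotypes do not overlap, and 10 of the 12 panels are higher in GFI1-KD, Wipi1 and the last Atg10 panel being lower.

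Among the genes of the initiation kinase, 1 of 21 tested peaks was called (4.76%, beside 10.5% of all tested peaks). Ulk2, a kinase that starts autophagosome formation, had a higher peak inside its body at chr11:61822162-61822989, 32.1 kb from its start. The 6 libraries read 76.6, 77.1 and 62.7 normalized reads in GFI1-KI 1 to 3 and 122, 128 and 141 in GFI1-KD 1 to 3. Every GFI1-KD library lay above every GFI1-KI library, and the log2 fold change was 0.85 ± 0.15 (SE, adjusted p by limma = 0.00113). None of 7 peaks at Ulk1, its close relative, or of 5 at Atg13, the regulatory subunit, was called. At Atg13 the fold changes ran from -0.02 to 0.41.

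The class III PI3-kinase genes had 8 higher and no lower peaks of 70 tested. The share called was 11.4%, all of it higher, beside 10.5% called over all tested peaks (4.99% higher and 5.48% lower). With median-of-ratios scaling 6.83% of all tested peaks were called higher, a share not counted for this group. The difference from all peaks was not tested. The called peaks were spread over 3 of the 4 genes. None overlapped the 1 kb around a listed start, but Pik3c3 and Becn1 have no start listed, so their peaks could not count as promoter peaks. Becn1, the scaffold of the complex, had 1 peak, and its log2 fold change was 0.08 ± 0.09 (SE, adjusted p by limma = 0.635).

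Uvrag, the subunit that directs the kinase to endosomes, had 3 higher peaks of 49 tested, all in its body. The strongest, at chr7:99024820-99025135 and 116.0 kb from the start, read 21.4, 27.2 and 19.6 normalized reads in GFI1-KI 1 to 3 and 84.5, 62.9 and 57.7 in GFI1-KD 1 to 3. Means ± SD (n = 3) were 22.7 ± 3.94 in GFI1-KI and 68.4 ± 14.2 in GFI1-KD, and the log2 fold change was 1.54 ± 0.22 (SE, adjusted p by limma = 0.00013). The lowest GFI1-KD library, at 57.7, stood well above the highest GFI1-KI library, at 27.2. Another, at chr7:99106891-99107236, read 59.7, 67.5 and 45.3 in GFI1-KI and 85.6, 99.97 and 93.1 in GFI1-KD, a change of 0.70 ± 0.18 (SE, adjusted p by limma = 0.013). The third, at chr7:99133864-99134537 and 6.6 kb from the start, read 358, 257 and 252 in GFI1-KI and 384, 399 and 412 in GFI1-KD, a change of 0.48 ± 0.12 (SE, adjusted p by limma = 0.0106). Both were lost when single libraries were left out, the former at adjusted p 0.0596 without GFI1-KD 2 and 0.107 without GFI1-KI 3, the latter at 0.0571 to 0.0868 without GFI1-KI 2 or 3 or GFI1-KD 3.

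Atg14, which directs the same kinase to forming autophagosomes, had 2 higher peaks of 9. The peak at chr14:47554235-47554803, 13.6 kb from its start, read 37.2, 57.0 and 49.1 in GFI1-KI and 103, 75.3 and 112 in GFI1-KD. It changed by 1.004 ± 0.19 (SE, adjusted p by limma = 0.00208), with no overlap between genotypes. A weaker peak at chr14:47562532-47562906 read 34.9, 25.4 and 19.6 in GFI1-KI and 57.8, 44.4 and 49.9 in GFI1-KD, a change of 0.93 ± 0.23 (SE, adjusted p by limma = 0.0113), lost at adjusted p 0.0853 without GFI1-KI 3.

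Pik3c3, the catalytic subunit, had 3 higher peaks of 11. In its body, chr18:30295627-30296199 read 83.3, 68.4 and 64.9 in GFI1-KI and 131, 125 and 156 in GFI1-KD, a change of 0.92 ± 0.16 (SE, adjusted p by limma = 0.000711). Nearby, chr18:30298075-30298348 read 81.1, 67.5 and 61.9 in GFI1-KI and 112, 92.6 and 121 in GFI1-KD and changed by 0.62 ± 0.16 (SE, adjusted p by limma = 0.0173), a call lost at adjusted p 0.0766 to 0.103 without GFI1-KI 2 or 3 or GFI1-KD 3. The peak 4.2 kb outside the body, chr18:30352328-30352672, read 28.1, 28.0 and 34.7 in GFI1-KI and 79.2, 49.4 and 66.5 in GFI1-KD and changed by 1.06 ± 0.21 (SE, adjusted p by limma = 0.00259). In all 3 the GFI1-KD libraries were above the GFI1-KI libraries.

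**Figure D3:**
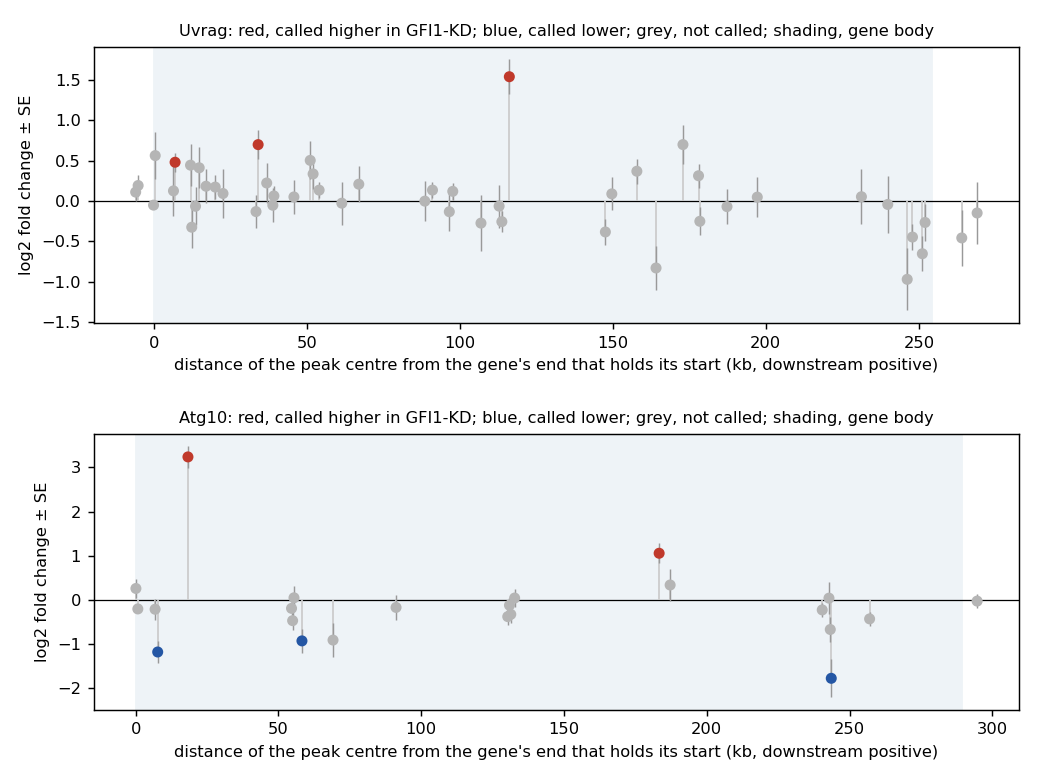
Log2 fold change ± SE of each tested peak at Uvrag (top) and Atg10 (bottom) against its distance in kb from the gene's start end, with the gene body shaded. At Uvrag 3 red peaks stand above 0 among uncalled ones, while at Atg10 the tall red peak at 3.24 lies between blue peaks on either side.

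Genes that supply membrane had 2 lower and no higher peaks of 37 (5.41% lower, close to the 5.48% of all tested peaks). Both were at Wipi1, a phosphoinositide-binding protein of early autophagosomes. Its promoter peak, chr11:109611058-109612152, covers the sequence printed above and the start next to it. It was the strongest promoter peak of the set, reading 2613, 2628 and 2714 in GFI1-KI and 2257, 2091 and 2155 in GFI1-KD. The change was small beside those of the distal sites, -0.29 ± 0.05 (SE, adjusted p by limma = 0.00049), and the genotypes did not overlap. A weak peak in the body, chr11:109584097-109584362, read 36.0, 38.6 and 42.3 in GFI1-KI and 21.4, 14.8 and 24.4 in GFI1-KD and changed by -0.94 ± 0.24 (SE, adjusted p by limma = 0.015), a call lost at adjusted p 0.0638 to 0.0909 without GFI1-KI 2 or 3 or GFI1-KD 2. Its relative Wipi2, the lipid transfer genes Atg2a and Atg2b and the lipid scramblase gene Atg9a had no called peak among 7, 8, 7 and 3 tested, respectively.

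Conjugation genes had 5 higher and 4 lower peaks of 96 (5.21% and 4.17%, beside 4.99% and 5.48% of all tested peaks). Of these, 5 were at Atg10, the E2-like enzyme that attaches ATG12 to ATG5, and they went both ways within 1 gene. At chr13:91206222-91206610, 17.4 kb into the gene, the libraries read 7.88, 11.4 and 12.8 normalized reads in GFI1-KI 1 to 3 and 152, 92.6 and 88.7 in GFI1-KD 1 to 3. Means ± SD were 10.7 ± 2.55 in GFI1-KI and 111 ± 35.4 in GFI1-KD, and the change of 3.24 ± 0.24 (SE, adjusted p by limma = 6.88e-08) was the largest of all 350. Calls of at least 4-fold, of which it was 1, were made at 0.162% of all tested peaks. The GFI1-KI values were low (7.88 to 12.8), and the log2(value + 1) scale understates changes from low values.

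The peak next to it on the side of the start, chr13:91216805-91217221, was lower. It read 39.4, 74.5 and 67.2 in GFI1-KI and 33.2, 17.3 and 27.7 in GFI1-KD, a change of -1.18 ± 0.26 (SE, adjusted p by limma = 0.00516). Far into the gene, chr13:91041255-91041548 was higher, at 18.0, 30.7 and 25.7 in GFI1-KI and 61.0, 48.1 and 46.6 in GFI1-KD and a change of 1.06 ± 0.23 (SE, adjusted p by limma = 0.0049). Lower as well, chr13:90981002-90981249 read 11.3, 17.5 and 27.9 in GFI1-KI and 3.21, 6.17 and 4.44 in GFI1-KD and changed by -1.77 ± 0.43 (SE, adjusted p by limma = 0.0103). It passed the filter on low values only through GFI1-KI, since the GFI1-KD libraries held 3, 5 and 4 reads there, which limits how precisely this change is known. Also lower, chr13:91166398-91166592 read 36.0, 52.6 and 37.8 in GFI1-KI and 32.1, 13.6 and 22.2 in GFI1-KD and changed by -0.93 ± 0.27 (SE, adjusted p by limma = 0.0307). The call at the first of these was lost at adjusted p 0.061 without GFI1-KI 2 and 0.15 without GFI1-KI 3, the other at 0.0718 to 0.18 without GFI1-KI 2 or 3 or GFI1-KD 2 or 3. Around the strongest Atg10 peak, 2.5 Mb on either side held 286 other tested peaks, of which 9.44% were called and 1 was called at 4-fold or more.

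Atg7, the E1-like enzyme of both conjugation systems, had 2 higher and 1 lower peaks of 37. Higher at chr6:114687112-114687358, inside the gene, the libraries read 59.7, 58.7 and 49.1 in GFI1-KI and 111, 80.2 and 109.8 in GFI1-KD, a change of 0.83 ± 0.17 (SE, adjusted p by limma = 0.00409). The lower one, chr6:114746517-114746741, read 33.8, 36.8 and 39.3 in GFI1-KI and 20.3, 12.3 and 17.7 in GFI1-KD and changed by -1.10 ± 0.25 (SE, adjusted p by limma = 0.00715), lost at 0.0526 without GFI1-KI 3. The other higher peak, chr6:114814984-114815147, was weak, at 14.6, 12.3 and 12.1 in GFI1-KI and 24.6, 32.1 and 21.1 in GFI1-KD, and its change of 0.93 ± 0.28 (SE, adjusted p by limma = 0.0379) was lost at 0.0506 to 0.156 without GFI1-KI 2 or 3 or GFI1-KD 1, 2 or 3. Atg16l1, which places the ATG12 and ATG5 conjugate on the membrane, had 1 higher peak at chr1:87772698-87772960. It read 9.01, 23.7 and 15.1 in GFI1-KI and 37.4, 27.2 and 26.6 in GFI1-KD and changed by 0.97 ± 0.31 (SE, adjusted p by limma = 0.0446), a call lost at 0.0815 to 0.156 without GFI1-KI 1 or 3 or GFI1-KD 1, 2 or 3. Atg3, the E2-like enzyme for ATG8, and Atg5 and Atg12, which are joined to each other, had no called peak among 7, 18 and 4 tested.

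The ATG8 proteins and the ATG4 proteases that process them had 1 higher and 2 lower peaks of 33 (3.03% and 6.06%). Over all tested peaks these shares were 4.99% and 5.48%. Map1lc3a, an LC3 gene, was lower in the peak at its end, chr2:155276162-155277166, which read 1037, 982 and 1004 in GFI1-KI and 868, 766 and 924 in GFI1-KD. Its change of -0.24 ± 0.07 (SE, adjusted p by limma = 0.034) was lost at adjusted p 0.0735 to 0.128 without GFI1-KI 1, 2 or 3 or GFI1-KD 2. Map1lc3b, Gabarap, Gabarapl1 and Gabarapl2 had no called peak among 4, 3, 6 and 3 tested, nor had Atg4b among 3.

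Atg4a, on the X chromosome, had 2 called peaks in its body. A weak one at chrX:140961146-140961272 was higher, at 16.9, 21.0 and 18.1 in GFI1-KI and 29.96, 34.6 and 32.2 in GFI1-KD, with a change of 0.76 ± 0.24 (SE, adjusted p by limma = 0.0457). It lost its call whichever library was left out, at adjusted p 0.0602 to 0.143 without GFI1-KI 1, 2 or 3 or GFI1-KD 1, 2 or 3. The other, chrX:141149611-141150101, was lower, at 136, 135 and 145 in GFI1-KI and 93.1, 90.1 and 114 in GFI1-KD, with a change of -0.49 ± 0.14 (SE, adjusted p by limma = 0.0309), and lost its call at 0.0688 to 0.14 without GFI1-KI 2 or 3 or GFI1-KD 1 or 2.

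Cargo receptor genes had 4 higher and 3 lower peaks of 41 (9.76% and 7.32%, beside 4.99% and 5.48% of all tested peaks). Sqstm1, which encodes p62 and links ubiquitinated cargo to ATG8, had both of its called peaks higher and outside the gene. At chr11:50217087-50217254, 6.3 kb from the start, the libraries read 31.5, 31.6 and 33.98 in GFI1-KI and 62.1, 54.3 and 56.5 in GFI1-KD, a change of 0.81 ± 0.19 (SE, adjusted p by limma = 0.00859). The replicates of each genotype lay close together there. At chr11:50213029-50213359 they read 341, 209 and 204 in GFI1-KI and 450.5, 307 and 344 in GFI1-KD, a change of 0.57 ± 0.16 (SE, adjusted p by limma = 0.0228), with GFI1-KI 1 inside the GFI1-KD range. That call was lost at 0.0608 to 0.137 without GFI1-KI 2 or 3 or GFI1-KD 1 or 3.

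Bnip3l (NIX), the receptor that clears mitochondria from maturing red cells, had 2 higher peaks outside its body and 1 lower at its end. The strongest, chr14:66976912-66977542, 7.7 kb from the body, read 49.5, 59.6 and 45.3 normalized reads in GFI1-KI 1 to 3 and 143, 92.6 and 143 in GFI1-KD 1 to 3. Its means ± SD were 51.5 ± 7.34 in GFI1-KI and 126 ± 29.2 in GFI1-KD, a change of 1.26 ± 0.18 (SE, adjusted p by limma = 0.000194). At chr14:66964113-66964774 the values were 153, 106 and 137 in GFI1-KI and 199, 159 and 181 in GFI1-KD and the change 0.45 ± 0.15 (SE, adjusted p by limma = 0.0495), lost at 0.0503 to 0.301 without GFI1-KI 2 or 3 or GFI1-KD 1, 2 or 3. The gene-end peak, chr14:67008205-67009296, read 1285, 1274 and 1284 in GFI1-KI and 1174, 1098 and 1105 in GFI1-KD and changed by -0.19 ± 0.06 (SE, adjusted p by limma = 0.0467), lost at 0.0648 to 0.189 without GFI1-KI 1, 2 or 3 or GFI1-KD 2 or 3.

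Bnip3, a related mitochondrial receptor, was lower in its promoter peak, chr7:138909178-138910071, which covers the sequence above. It read 1486, 1585 and 1560.2 in GFI1-KI and 1373, 1264 and 1344 in GFI1-KD and changed by -0.22 ± 0.06 (SE, adjusted p by limma = 0.0174), lost at 0.0536 to 0.126 without GFI1-KI 2 or 3 or GFI1-KD 3. Optn, the optineurin receptor, had 1 lower peak 13.6 kb outside its body, chr2:5078009-5078278. It read 13.5, 35.9 and 31.0 in GFI1-KI and 9.63, 13.6 and 6.65 in GFI1-KD, so that GFI1-KI 1 lay within the range of GFI1-KD. Its GFI1-KD values average under the filter of 10, so the peak passed the filter only through GFI1-KI. The call, at a change of -1.28 ± 0.36 (SE, adjusted p by limma = 0.0254), was lost at 0.103 to 0.189 without GFI1-KI 2 or 3 or GFI1-KD 3. Nbr1, a further receptor, had no called peak among 7.

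At the lysosomal genes 4 peaks were higher and 2 lower of 52 (7.69% and 3.85%, beside 4.99% and 5.48% of all tested peaks). None of these held its call without each library. Lamp1, a major glycoprotein of the lysosomal membrane, had called peaks of opposite sign close together in its body. At chr8:13160788-13161005, 1.6 kb from its start, the libraries read 129, 96.4 and 100.4 in GFI1-KI and 154, 142 and 162 in GFI1-KD, a change of 0.50 ± 0.14 (SE, adjusted p by limma = 0.03), lost at 0.0554 to 0.167 without GFI1-KI 2 or 3 or GFI1-KD 1 or 3. At chr8:13163601-13163920 they read 70.9, 99.9 and 74.0 in GFI1-KI and 58.8, 22.2 and 39.9 in GFI1-KD, a change of -1.09 ± 0.25 (SE, adjusted p by limma = 0.00763), lost at 0.0503 without GFI1-KD 2 and 0.0582 without GFI1-KI 2. Its promoter peak, over the 4 CACGTG copies printed above, read 479, 458 and 488 in GFI1-KI and 458, 399.9 and 478 in GFI1-KD and was not called (-0.10 ± 0.09, adjusted p by limma = 0.541). Within 2.5 Mb on either side of the Lamp1 peaks 12.3% of 555 tested peaks were called and 3 (0.541%) were called at 4-fold or more. Over all tested peaks these shares were 10.5% and 0.162%. Around all 36 called peaks they ran from 4.85% at Lamp2 to 13.7% at Wipi1, and from 0% to 0.727%.

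Tfeb, a master transcription factor of lysosomal genes, had 1 lower peak of 22 at chr17:47743351-47743668. It read 72.1, 115 and 89.1 in GFI1-KI and 66.3, 45.7 and 56.5 in GFI1-KD and changed by -0.69 ± 0.19 (SE, adjusted p by limma = 0.0225), lost at 0.0617 to 0.181 without GFI1-KI 2 or 3 or GFI1-KD 2 or 3. Tfe3, its X-linked relative, had 2 higher peaks of 8. At chrX:7763645-7764344, within 1 kb of a start, the libraries read 247, 177 and 174 in GFI1-KI and 287, 259 and 248 in GFI1-KD, a change of 0.42 ± 0.13 (SE, adjusted p by limma = 0.0387). At chrX:7765778-7766166 they read 215, 209 and 157 in GFI1-KI and 288, 242 and 241 in GFI1-KD, a change of 0.41 ± 0.13 (SE, adjusted p by limma = 0.042). The first was lost at 0.0714 to 0.205 without GFI1-KI 2 or 3 or GFI1-KD 1, 2 or 3, the second at 0.0646 to 0.282 without GFI1-KI 2 or 3 or GFI1-KD 1, 2 or 3.

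Lamp2, also X-linked, encodes a lysosomal membrane protein needed for fusion with autophagosomes. It had 1 higher peak 5.6 kb outside the gene, chrX:38462103-38462525. The values were 189, 169 and 189 in GFI1-KI and 242, 241 and 227 in GFI1-KD and the change 0.38 ± 0.11 (SE, adjusted p by limma = 0.0363), lost at 0.0725 to 0.192 without GFI1-KI 2 or 3 or GFI1-KD 1, 2 or 3. Since GFI1-KI 2 held 1 read on chromosome Y and GFI1-KD 1 held 0 (which allows up to 3), against 499 to 865 in the other 4 libraries, the X-linked values were set beside these counts. In the main Tfe3 promoter peak those 2 libraries read 599.5 and 652 against 581 to 635 in the others, and in the main Atg4a promoter peak 335 and 318 against 320.4 to 360.2. In the main Lamp2 promoter peak they read 534 and 444 against 464 to 526. GFI1-KD 1 was thus highest at Tfe3 and lowest at Atg4a and Lamp2, and GFI1-KI 2 was highest at Lamp2 and inside the range at the other genes.

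The main promoter peak of each gene was compared next, taking the one with the highest mean, or the peak at a gene end where no start or no peak near it was listed (33 genes, all but Pik3c3). On the deposited scale 32 of 33 had a negative log2 fold change, with a median of -0.15, and 4 were called, all lower: Wipi1, Map1lc3a, Bnip3 and Bnip3l. The exception was Becn1. Among the strongest uncalled promoters, Uvrag read 1686, 1664 and 1717 in GFI1-KI and 1698, 1588 and 1603 in GFI1-KD (-0.05 ± 0.05, adjusted p by limma = 0.587) and Sqstm1 read 1249, 1261 and 1293 in GFI1-KI and 1192, 1068 and 1099.9 in GFI1-KD (-0.18 ± 0.06, adjusted p by limma = 0.0651). Ulk1 changed by -0.19 ± 0.06 (SE, adjusted p by limma = 0.0676), Optn by -0.24 ± 0.09 (SE, adjusted p by limma = 0.0838) and Atg5 by -0.19 ± 0.07 (SE, adjusted p by limma = 0.078), all in genes whose GFI1-KD libraries lay below the GFI1-KI libraries but were not called. Such separation was common in promoters. It was seen at 14 of the 27 genes of the set with a listed promoter peak (51.9%). Of 7497 genes whose highest promoter peak averaged at least 300 normalized reads, 49.9% had it.

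The same shift was seen in promoters at large. Over the highest promoter peak of 11723 genes, 81.6% were negative with a median of -0.13 and 12.8% were called lower. Among the 7497 genes whose peak averaged at least 300 normalized reads, 89.7% were negative and 16.7% were called lower. The 27 genes of the set with such a peak, each with a mean of at least 300, were all negative, with a median of -0.15, and 2 (7.41%) were called lower. With median-of-ratios scaling, which raises the median of all tested peaks by 0.05, 27 of the 33 were negative, 6 were positive, and 2 were called lower (Wipi1 and Bnip3, adjusted p 0.0021 and 0.0489). Map1lc3a and Bnip3l then had adjusted p of 0.0518 and 0.133. The promoters of Wipi1 and Bnip3 were thus lower on either scale, and the sign at Atg13, Atg14, Atg9a, Atg7 and Tfe3 depended on it.

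**Figure D4:**
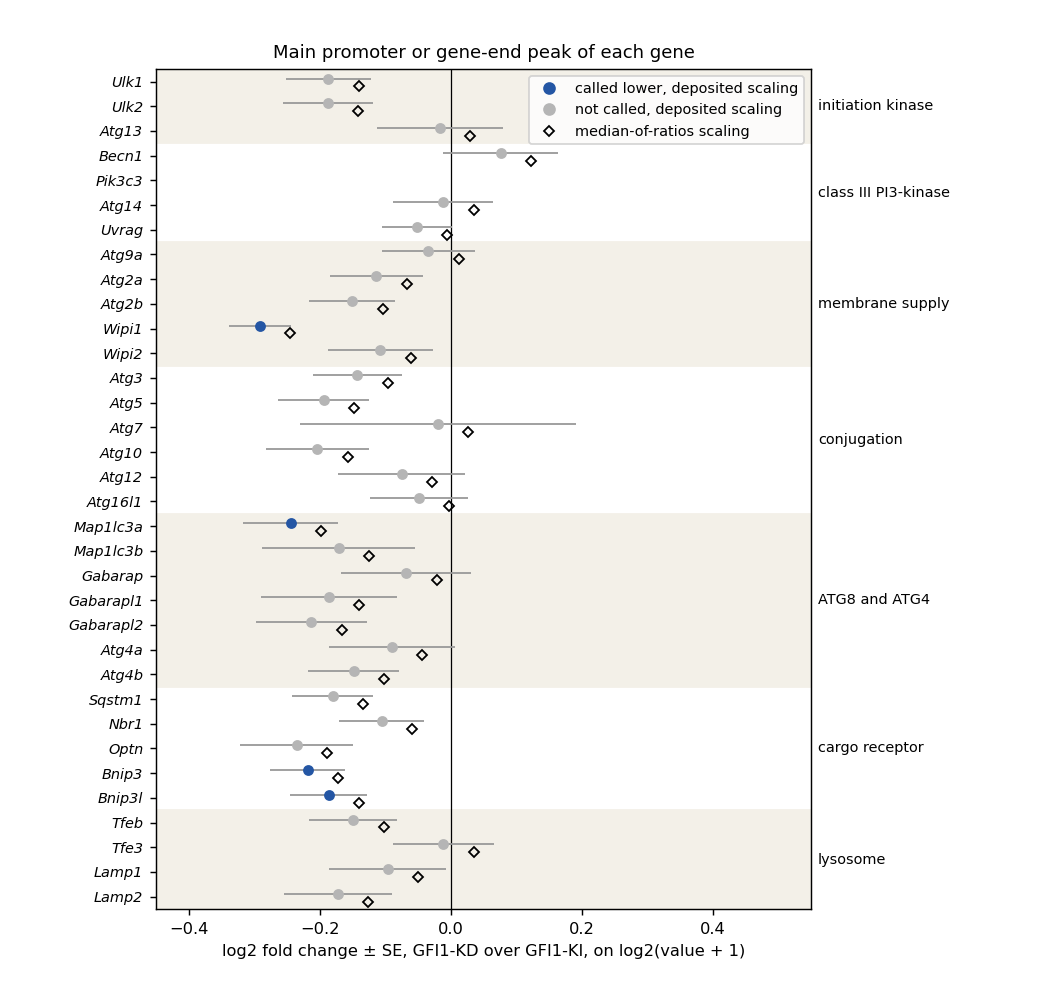
Log2 fold change of the main promoter or gene-end peak of 33 genes (circles with SE, deposited scaling; open diamonds, median-of-ratios scaling), blue where called lower. Nearly all circles lie left of 0, Wipi1 farthest at -0.29, and each diamond lies to the right of its circle.

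To account for each gene once, reads were summed over all of its peaks and tested over 17735 genes. On the deposited scale 3 of 34 were lower, none higher and 31 were not called, while 17.2% of all genes were called (3.84% higher and 13.4% lower). Wipi1 summed to 3273, 3396 and 3407 in GFI1-KI and 2920.0, 2599 and 2773 in GFI1-KD, a change of -0.28 ± 0.06 (SE, adjusted p by limma = 0.00193), called without any 1 library too. Map1lc3a summed to 1118, 1056 and 1086 in GFI1-KI and 954, 827 and 993 in GFI1-KD, a change of -0.24 ± 0.07 (SE, adjusted p by limma = 0.025). That call was lost at 0.091 without GFI1-KD 2, 0.0635 without GFI1-KI 3 and 0.0547 without GFI1-KI 1. Bnip3 summed to 2603, 2665 and 2633 in GFI1-KI and 2332, 2175 and 2454 in GFI1-KD, a change of -0.18 ± 0.06 (SE, adjusted p by limma = 0.0295), lost at 0.0752 without GFI1-KD 2, 0.0952 without GFI1-KI 3 and 0.131 without GFI1-KI 2.

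Which other sums were called changed with the scaling. Of all called genes 22.3% were higher on the deposited scale and 62.8% with median-of-ratios scaling. With that scaling 6 genes of the set (17.6%) were called, the same share as over all genes (17.6%). Of these 5 were higher, namely Atg13 (0.22), Pik3c3 (0.20), Atg14 (0.23), Uvrag (0.15) and Tfe3 (0.20), and 1 lower, Wipi1 (-0.20). On the deposited scale those 5 had positive changes that were not called, between 0.08 ± 0.06 at Uvrag and 0.15 ± 0.07 at Atg14. Map1lc3a and Bnip3 were not called with median-of-ratios scaling (adjusted p 0.0559 and 0.0845). Wipi1 was lower under both.

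**Figure D5:**
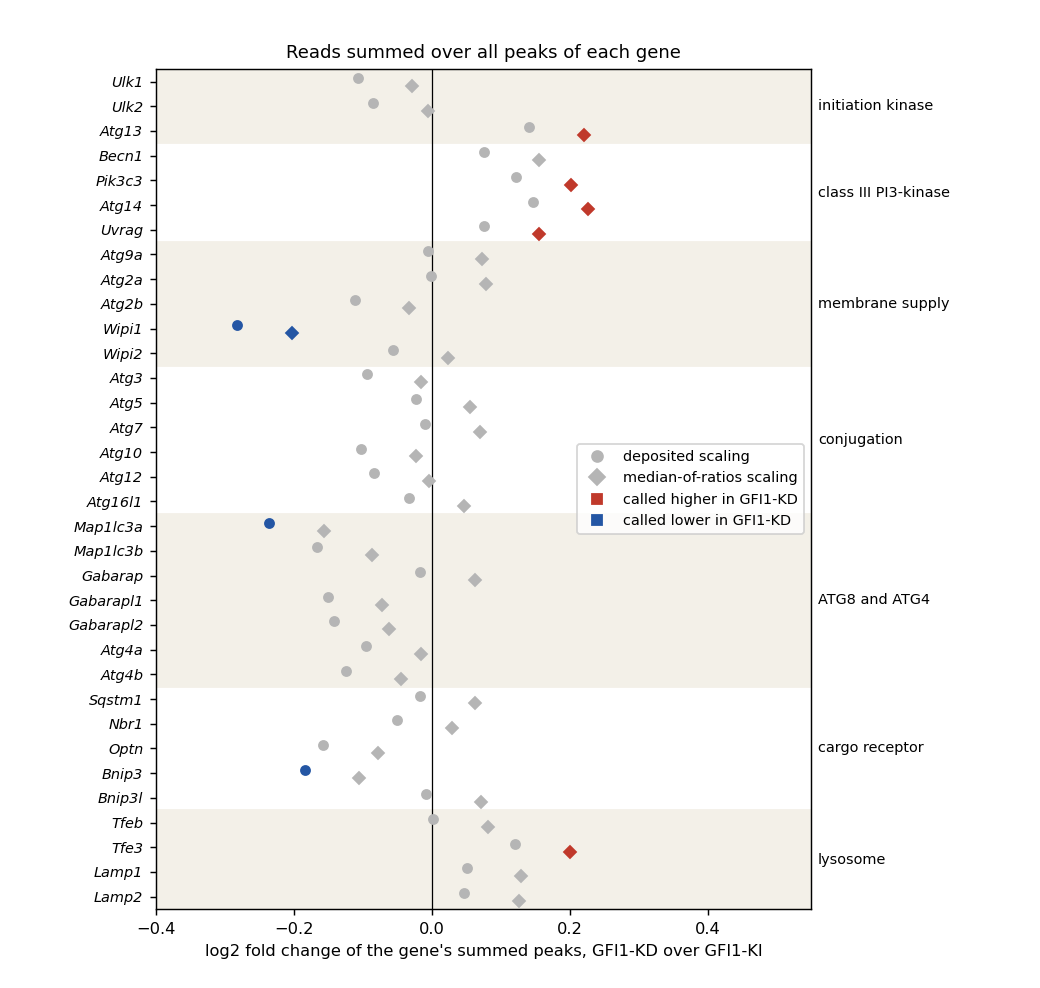
Log2 fold change of reads summed over all peaks of each gene, with deposited scaling (circles) and median-of-ratios scaling (diamonds), red where called higher and blue where called lower. Wipi1 is blue under both, and 5 diamonds but no circle are red.

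Other genes of the pathway were taken from a list of 58. Of their 718 tested peaks 31 were higher and 26 lower (7.94%, beside 10.5% of all peaks). The split changed with the scaling, to 53 higher and 21 lower with median-of-ratios scaling, 52 and 22 with equal totals, 53 and 25 with edgeR and 33 and 7 with DESeq2. Other autophagy genes had 7 higher and 10 lower of 209 (8.13%), and lysosomal genes 11 and 6 of 251 (6.77%). Genes of nutrient sensing and transcription had 13 and 10 of 258 (8.91%). Called peaks lay at 29 of the 58 genes, higher only at 11, lower only at 11 and both at 7. Here too the share over all genes was not counted.

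The 3 called peaks with the smallest p in each direction held their call in each fit that tested them. Ctsb, the protease cathepsin B of the lysosome, held 2 of these peaks, both higher and in its body. At chr14:63132268-63132783 the libraries read 437, 342 and 320.2 in GFI1-KI and 705, 629 and 648 in GFI1-KD, a change of 0.86 ± 0.10 (SE, adjusted p by limma = 2.27e-05), and at chr14:63130768-63130933 the change was 1.248 ± 0.20 (SE, adjusted p by limma = 0.000437). Foxo1, a forkhead factor that drives autophagy genes, was higher at chr3:52297533-52297829, with 25.9, 16.7 and 9.06 in GFI1-KI and 55.6, 61.7 and 62.1 in GFI1-KD and a change of 1.85 ± 0.28 (SE, adjusted p by limma = 0.000244). Mitf, a relative of Tfeb and Tfe3, was lower at chr6:97887791-97888226. It read 92.3, 92.0 and 92.1 in GFI1-KI and 43.9, 34.6 and 26.6 in GFI1-KD, a change of -1.40 ± 0.19 (SE, adjusted p by limma = 0.000108), with the GFI1-KI libraries within 1 read of each other. Atp6v0a1, a subunit of the proton pump that acidifies lysosomes, was lower at chr11:101063602-101064049, with a change of -0.69 ± 0.11 (SE, adjusted p by limma = 0.00062). Rptor, the mTORC1 subunit raptor, was lower at chr11:119643447-119643729, with a change of -1.12 ± 0.20 (SE, adjusted p by limma = 0.00139). Over all their tested peaks, Mitf had 4 higher and 2 lower of 40, and Rptor 3 and 3 of 51. Atp6v0a1 had 1 and 1 of 21, and Foxo1 3 and 1 of 38. Ctsb had 4 higher and none lower of 11.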

How the data were processed

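The authors deposited 1 table of coverage signal, normalized reads per consensus peak in 6 libraries, and the scaling used is not given in the sources used here. Per the submitters' processing notes, the build was mm10, and the tools included BWA and SAMtools, MACS2, HOMER with ChIPseeker, DiffBind, Picard, and Trim Galore, in no stated role. Peak merging and any transposase offset are likewise unstated. Columns named WT were read as GFI1-KI by their numbers and the series title. Chromosome codes were read as alphabetical, under which 12.7% of peaks lay within 1 kb of a start on the 16 codes compared, against 1.27% in numeric order.

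Each value was a whole multiple of 1 step per library (100% within 0.01 reads), so reads were recovered, and 3 reads equal 2.27 to 3.70 normalized reads. The main test was limma 3.58.1 (R 4.3.3) with a variance trend on log2(value + 1), for peaks with a mean of at least 10, with Benjamini-Hochberg adjustment over all peaks. Sums per gene were tested likewise over all genes. Alternatives were edgeR 4.0.16 and DESeq2 1.42.0 on recovered reads, median-of-ratios or equal-total scaling, pseudocounts of 0.5 and 5, no filter or a mean of at least 50, a replicate block, a term for chromosome Y reads, robust variances, gene bodies only, and each library left out. Gene positions and promoter sequences came from RefSeq tables (GRCm38.p6).

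Named were all called peaks of the 34 genes, each gene's highest promoter or gene-end peak, promoter peaks of X-linked genes, and the 3 called peaks with the smallest p in each direction among the other pathway genes; any other gene with values was picked with its values in view. The genes and lists were chosen with earlier results of these data known.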

Additional observations from a re-analysis of the deposited data

How the results depend on the processing

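The direction of all 36 called peaks held in every fit, and none of the 108 single values followed across alternatives reversed after being called, though 106 uncalled comparisons changed sign. Calls were less stable than directions. With a mean of at least 50 required, 23 peaks of the set were called, since fewer were tested. DESeq2 called 10819 of all peaks (edgeR 21516), 24 peaks of the set (edgeR 43) and 1 main promoter peak, while median-of-ratios scaling and edgeR each called 2 main promoter peaks. Summed reads gave 6 called genes of the set with median-of-ratios scaling, edgeR or DESeq2 (17.6%) and 7 with equal totals (20.6%), while over all genes 17.6%, 18.4%, 14.6% and 18.6% were called in these fits. Of all called peaks 47.7% were higher on the deposited scale, 60.1% with median-of-ratios scaling and 58.6% with equal totals. The cause of these differences was not tested. Leaving out 1 library, calls ranged from 6996 to 22129 for all peaks, 13 to 44 for the set, 24 to 87 for the other pathway genes, 1 to 5 for main promoter peaks, 1388 to 3701 for all summed genes and 1 to 3 for those of the set. The low ends came without GFI1-KI 2 or GFI1-KI 3, and for the summed genes of the set also without GFI1-KD 2. Leaving out GFI1-KI 2, GFI1-KI 3 or GFI1-KD 3 gave 16, 13 or 21 called peaks of the set. The replicate block gave 37 peaks of the set, 18940 of all peaks, 4015 summed genes and 4 of the set. Deviations of same-numbered libraries from their group means correlated at -0.024, -0.038 and 0.056, and those of the other pairs at -0.061 to 0.085. The numbers were therefore not taken as pairs. With 3 libraries per genotype, weak peaks with a few reads per library limit the precision.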
